A study of Mus musculus with 2 samples.

Results

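The odorant receptor cluster on mouse chromosome 19 runs from Olfr1417 to Olfr1505, at chr19:11826803-13921866 of GRCm38, and is described here as it lies among chromatin boundaries of olfactory sensory neurons. Its members are the protein-coding genes of this span whose symbol is Olfr followed by digits. There are 66 of them, out of 1135 protein-coding receptor genes and 21755 protein-coding genes in all, and 3 of the 66 (Olfr1555-ps1, Olfr1438-ps1 and Olfr1493-ps1) are annotated as coding although their symbol ends as a pseudogene's does. In situ Hi-C, which joins and reads DNA fragments that touch inside fixed nuclei, was done on mature neurons that express Olfr1507 (MOR28), sorted by fluorescence from adult MOR28-GFP mice of the 129P2/OlaHsd strain and of mixed sex. There was 1 group of 2 biological replicates, with 170000 and 220000 cells, with no treatment. The labels name MOR28-GFP mice in the sort but list no genetic modification, and they do not say how many animals were pooled. With no expression values the cell type could not be checked against its markers.

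An odorant receptor is a G protein-coupled receptor in the cilia of an olfactory sensory neuron, and each mature neuron expresses 1 receptor gene from among the many in the genome. The genes lie in clusters that arose by repeated local duplication. In mature neurons the clusters that are not chosen carry heterochromatin marks and gather in the nucleus. The gene by which these neurons were sorted, Olfr1507, is not a member of the cluster, and expression of the members was not measured.

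At a boundary, contacts between the DNA on its left and on its right are depleted. The deposited list gives each boundary as an interval of 5 kb with a strength, a score of unstated scale, and a class. Boundaries at or above about 0.50 are called strong in the list and those below it weak, down to 0.20. The authors combined both replicates before they called boundaries, so no value has a replicate error, the depth behind a boundary is unknown, and no test was made. Intervals given with shares are exact binomial (Clopper-Pearson) 95% intervals that cover counting error only, and neighbouring genes and boundaries are not independent.

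A pair of DNA features frames what follows, the promoters that lie at boundaries of the cluster and the matches to the motif of CTCF, a DNA-binding protein known to hold many boundaries. The promoter of Patl1, a gene of messenger RNA decay that is not a receptor gene, lies inside a boundary interval. The promoters of the receptor genes Olfr1423 and Olfr1441 lie within 10 kb of boundary intervals. The 250 bases before each annotated start are shown on the strand of the gene, read from the GRCm38.p6 sequence of RefSeq at chr19:11912149-11912398 (forward strand), chr19:12041318-12041567 (reverse strand) and chr19:12417183-12417432 (forward strand). Capitals mark TAATTA, a core sequence that homeodomain factors such as Lhx2 recognise.
Patl1: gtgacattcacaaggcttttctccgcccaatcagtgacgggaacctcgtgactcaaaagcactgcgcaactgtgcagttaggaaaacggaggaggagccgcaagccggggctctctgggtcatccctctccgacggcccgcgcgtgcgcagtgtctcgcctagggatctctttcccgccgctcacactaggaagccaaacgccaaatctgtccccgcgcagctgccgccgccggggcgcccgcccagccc
Olfr1423: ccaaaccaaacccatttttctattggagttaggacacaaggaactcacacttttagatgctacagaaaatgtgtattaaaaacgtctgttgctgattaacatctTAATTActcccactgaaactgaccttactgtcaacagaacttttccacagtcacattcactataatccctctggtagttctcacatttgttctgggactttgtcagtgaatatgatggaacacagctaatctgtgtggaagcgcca
Olfr1441: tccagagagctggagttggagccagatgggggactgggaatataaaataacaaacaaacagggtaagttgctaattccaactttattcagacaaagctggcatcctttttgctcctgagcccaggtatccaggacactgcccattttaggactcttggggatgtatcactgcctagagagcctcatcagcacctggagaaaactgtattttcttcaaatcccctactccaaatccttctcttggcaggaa
The Patl1 sequence has 64.4% GC and 24 CG dinucleotides. That of Olfr1423 has 39.2% GC and 2 CG dinucleotides, and that of Olfr1441 has 46% GC and 0 of them. TAATTA was found once in the Olfr1423 promoter and in neither of the others. Over these 250 bases it lay in 18 of the 66 members (27.3%), 22.2% of 1069 receptor genes elsewhere and 4.91% of all protein-coding genes. The palindrome recognised by Ebf factors, TCCC and GGGA parted by any 2 bases, lay in 1 member (1.52%), 2.25% of receptor genes elsewhere and 0.901% of all protein-coding genes. Both motifs read the same on either strand, and a match or its lack says nothing about binding.

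The stretch between the boundaries outside the cluster's ends held 8 matches to the CTCF motif. They are shown with 20 bases on each side, on the strand of the match, with the 12 matched bases in capitals. Each is named by a gene it lies in or next to, where before and after follow chromosome coordinates. The first lies between Stx3 and Olfr1417, both on the reverse strand, beyond the end of Olfr1417 and nearer to the start of Stx3.
Before Olfr1417, chr19:11820022-11820073 (reverse): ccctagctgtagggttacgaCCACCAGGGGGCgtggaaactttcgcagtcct
Olfr1420 intron, chr19:11888576-11888627 (forward): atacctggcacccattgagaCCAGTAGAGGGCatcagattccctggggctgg
Before Osbp, chr19:11964452-11964503 (reverse): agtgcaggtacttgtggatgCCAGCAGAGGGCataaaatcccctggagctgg
Between Osbp and Olfr1423, chr19:12015880-12015931 (forward): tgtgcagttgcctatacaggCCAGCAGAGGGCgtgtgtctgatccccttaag
Between Dtx4 and Fam111a, chr19:12502176-12502227 (reverse): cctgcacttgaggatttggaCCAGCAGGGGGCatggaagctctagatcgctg
Fam111a intron, chr19:12549329-12549380 (forward): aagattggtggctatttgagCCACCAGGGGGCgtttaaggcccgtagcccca
After Keg1, chr19:12722487-12722538 (forward): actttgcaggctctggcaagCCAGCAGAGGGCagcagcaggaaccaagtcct
Lpxn intron, chr19:12820565-12820616 (reverse): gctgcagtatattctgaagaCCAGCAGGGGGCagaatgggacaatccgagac
All 8 lie in the stretches that also hold other coding genes, and none lies in an annotated exon. A match or its lack says nothing about CTCF binding, which was not measured.

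The receptor genes were not spread evenly over the intervals between boundaries. Of the 66, 59 lay in 2 intervals with 1 other coding gene, and the remaining 7 lay in 3 intervals that together hold more other coding genes than receptor genes. The span held 5 boundaries and was closed by 1 more on each side, so that it was parted into 6 intervals. In each interval a gene was counted where its middle lay.

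**Figure D1:**
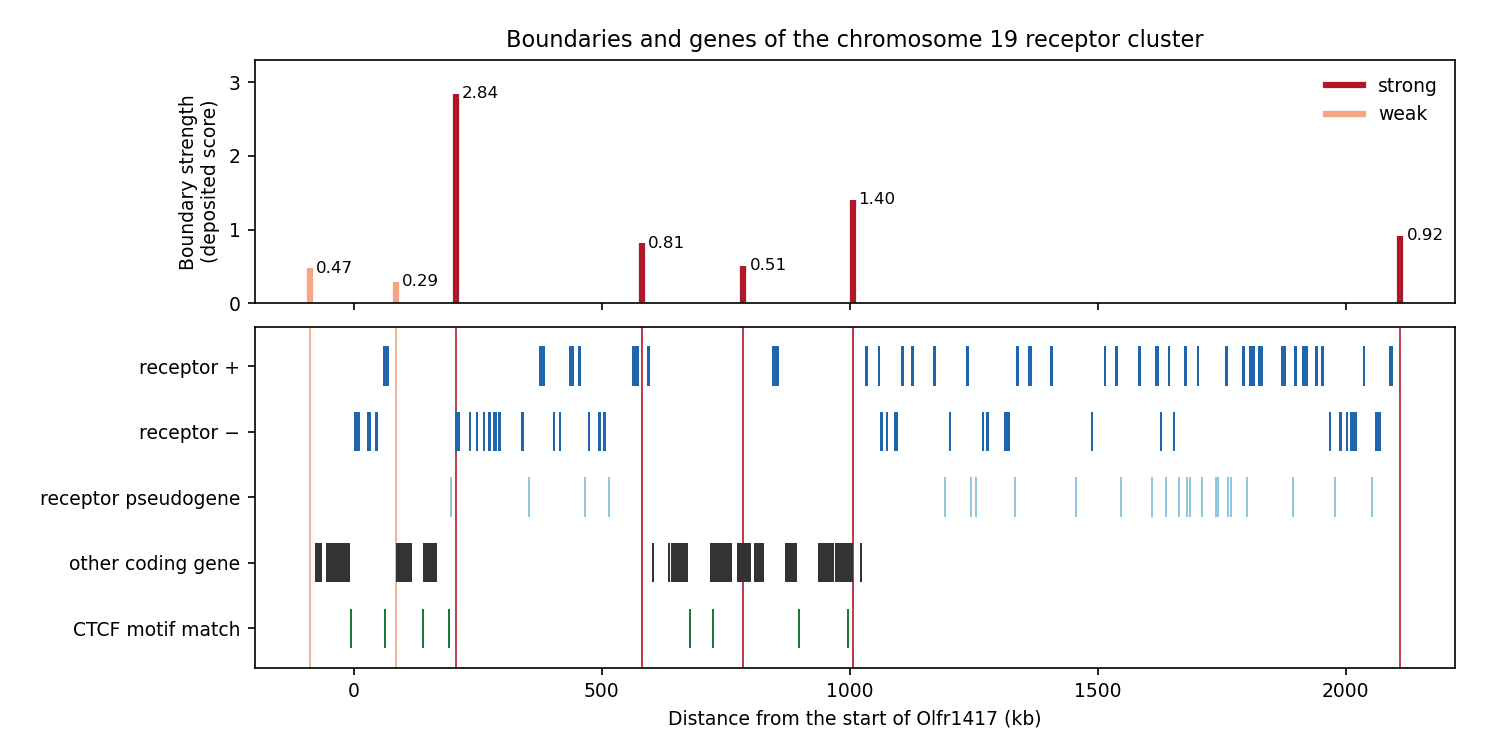
Boundaries and genes of the cluster, by distance from the start of Olfr1417 in kb. The upper panel gives the deposited strength of the 7 boundaries inside and next to the span (strong in red, weak in orange), and the lower panel gives receptor genes by strand, receptor pseudogenes, other coding genes and CTCF motif matches, with the boundaries as lines. Receptor genes fill the 375 kb and the 1105 kb interval, where no CTCF match is drawn.

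The first interval, of 175 kb, held Olfr1417, Olfr1418, Olfr1419 and Olfr1420 together with Gif, the gene of intrinsic factor for vitamin B12 uptake, the mitochondrial ribosomal gene Mrpl16, and Stx3, a gene of membrane fusion. The next, of 120 kb, held 0 coding receptor genes, 2 receptor pseudogenes and the genes Patl1 and Osbp, of which Osbp encodes an oxysterol-binding protein. The third, of 375 kb, held 17 receptor genes from Olfr1423 to Olfr1440 and 0 other coding genes. The fourth, of 205 kb, held Olfr1441 and 4 other genes, namely Pfpl, Mpeg1, which encodes a pore-forming protein of macrophages, Dtx4 and Fam111a. The fifth, of 220 kb, held Olfr1442 and Olfr1443 and 6 other genes, namely Gm4952, the glycine acyltransferase gene Glyat, Keg1, the neurotrophic factor gene Cntf, Zfp91 and Lpxn, a gene of focal adhesions. The sixth, of 1105 kb, held 42 receptor genes from Olfr1444 to Olfr1505, 20 receptor pseudogenes and Gm5244 alone of other coding genes.

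The 1105 kb interval ranked among the longest of the genome and among those richest in receptor genes. Its length was at the 97.9th percentile of 7347 intervals, whose median was 265 kb, and its 42 receptor genes shared rank 2. An interval of 1070 kb on chromosome 2 held 48, and one of 770 kb on chromosome 7 also held 42. Receptor genes lay in 109 intervals, of which 25 had no other coding gene and 3 held at least 40 receptor genes. The 375 kb interval was at the 71.02th percentile of length. Counted by gene, the interval around a member was 1105 kb long at the median (quartiles 375 and 1105), against 560 kb for 1068 receptor genes elsewhere (quartiles 330 and 790) and 275 kb for 20409 other coding genes. The 42 genes of 1 interval thus set the median of the members.

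**Figure D2:**
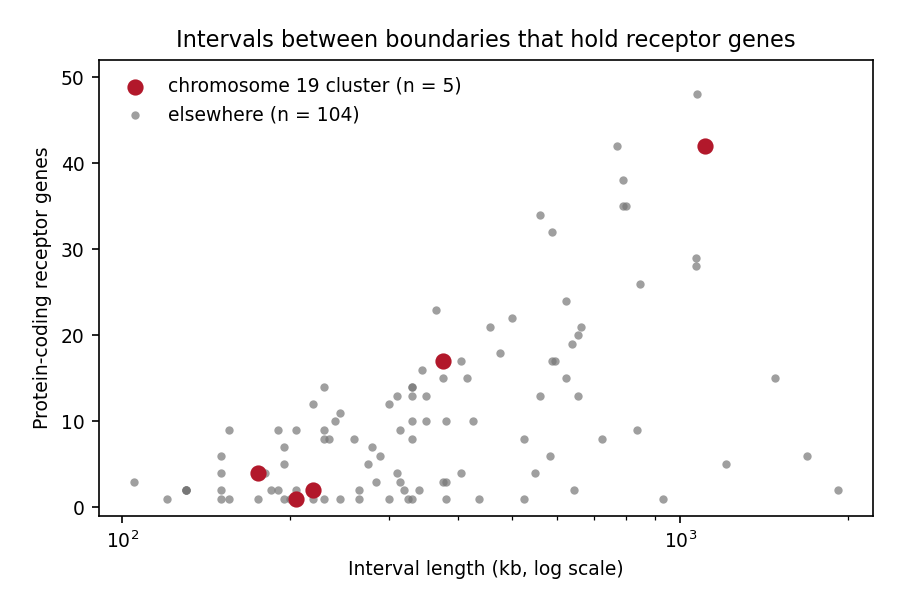
Number of protein-coding receptor genes (vertical axis) against interval length in kb (horizontal axis, log scale) for the 109 intervals that hold any. The 5 intervals of the chromosome 19 cluster are in red, and its 1105 kb interval with 42 genes lies at the upper right, near the interval with 48 genes.

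The 2 receptor-rich intervals were richer in repeats, as soft-masked in the reference, than the others of the cluster. The 1105 kb interval had 37.9% GC and 51.2% repeats and the 375 kb interval 39.6% GC and 45.96% repeats, and together they had 38.3% GC, 49.8% repeats and 0 CTCF motif matches in 1.48 Mb. The other 4 intervals of the cluster had 41.6% GC, 30.9% repeats and 8 matches in 0.72 Mb, or 11.1 per Mb. GC content did not part them cleanly, since the 220 kb interval with Olfr1442 and Olfr1443 had 39.3%. Repeats ran from 27.9 to 33.2% in the 4. Elsewhere in the genome 42 intervals with at least 10 receptor genes had 38.4% GC, 48.1% repeats and 1.77 matches per Mb. Their GC and repeats were close to those of the receptor-rich intervals of the cluster. Matches were sparse elsewhere too, 41 in 23.1 Mb, and whether 0 in 1.48 Mb differs from that was not tested. Over all 7347 intervals the values were 41.8% GC, 34.2% repeats and 4.99 matches per Mb. The repeat share of the 1105 kb interval was at the 95.4th percentile of all intervals and its GC content at the 10.2th percentile. The part of the repeat content in the lack of boundaries there was not tested.

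Of the 5 boundaries inside the cluster, 4 lay in or against a gene body, 1 receptor gene and 3 other genes, and 1 lay between receptor genes. The share of all boundaries that overlap a gene body was not computed, so these counts are a description only. The weak boundary at chr19:11910001-11915000 had a strength of 0.295, at the 21.1th percentile of the 7367 boundaries. It held the start of Patl1, which lay 0.101 kb from its midpoint, and overlapped coding and untranslated exon sequence of that gene. To its left the nearest receptor gene start was that of Olfr1420, 25.9 kb away. To its right the nearest was that of Olfr1423, 129 kb away.

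The boundary at chr19:12030001-12035000 was the strongest of chromosome 19. Its strength of 2.84 ranked 1 of 190 there, 15 of 7367 in the genome and 1 of 60 among boundaries inside the 33 receptor clusters. A cluster is here a run of at least 5 protein-coding receptor genes less than 500 kb apart. The boundary overlapped untranslated exon sequence at the end of Olfr1423, which is on the reverse strand, and no coding sequence. The start of Olfr1423 lay 8.82 kb to the right of the midpoint, in the receptor-rich interval of 375 kb, and the nearest coding gene start to the left was that of Osbp, at 66.6 kb. A CTCF match lay 16.6 kb to its left, outside the boundary interval widened by 10 kb.

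The boundary at chr19:12405001-12410000 had a strength of 0.814, at the 66.6th percentile, and overlapped no gene. It lay in the 15.8 kb gap between Olfr1440 and Olfr1441, with the Olfr1440 start 20.2 kb to the left and the Olfr1441 start 9.93 kb to the right. No other boundary midpoint of the cluster lay in a gap between neighbouring receptor genes.

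The boundary at chr19:12610001-12615000 had a strength of 0.509, just above the limit for the strong class, and lay inside Gm4952 over coding and untranslated exon sequence. The start of Gm4952 was 12.5 kb to the left of its midpoint, just outside the interval widened by 10 kb. The boundary at chr19:12830001-12835000 had a strength of 1.404, at the 88.7th percentile, and lay at the end of Lpxn, over coding and untranslated exon sequence. The 1105 kb interval begins there, with Gm5244 at 14.2 kb and the Olfr1444 start at 24.8 kb. Of the 7 boundaries described, this one alone had a CTCF match in its widened window, the one in the Lpxn intron, 11.9 kb to the left of its midpoint. That is 14.3% of the windows (interval 0.361 to 57.9), against 23.9% of all boundaries.

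At the ends of the cluster the boundaries differed. To the right of Olfr1505 a strong boundary at chr19:13935001-13940000, with a strength of 0.918, lay 15.6 kb beyond the gene end and overlapped no gene. To the left of Olfr1417 the nearest boundary outside, at chr19:11735001-11740000 with a strength of 0.474, was weak and lay 89.3 kb away, beyond Stx3, Mrpl16 and Gif. Within 50 kb, 1 of the 2 edges had a boundary. Over the 33 clusters 57.6% of edges did, so that 1 of 2 is near that background.

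Of the 5 boundaries inside, 4 were strong, against 20 of 55 (36.4%) in the other 32 clusters and 106 of 185 (57.3%) on the rest of chromosome 19. Among all boundaries 55% were strong. The median strength was 0.814 inside the cluster (n = 5, range 0.295 to 2.84), 0.368 in the other clusters (n = 55, range 0.209 to 2.78) and 0.599 on the rest of the chromosome (n = 185, range 0.203 to 2.69). The 5 values overlap both other sets over most of their range. Clusters with at least as many other coding genes as this one (13) varied in their share of strong boundaries. That from Olfr1370 to Olfr1359 (13 other genes) held 3 strong of 4, and that from Olfr722 to Olfr750 (16) held 2 of 3. The cluster from Olfr543 to Olfr692 (27) held 2 of 8. No cluster held more strong boundaries, and the cluster ranked 3 of 33 in boundaries, where it was also among the 4 with most genes.

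**Figure D3:**
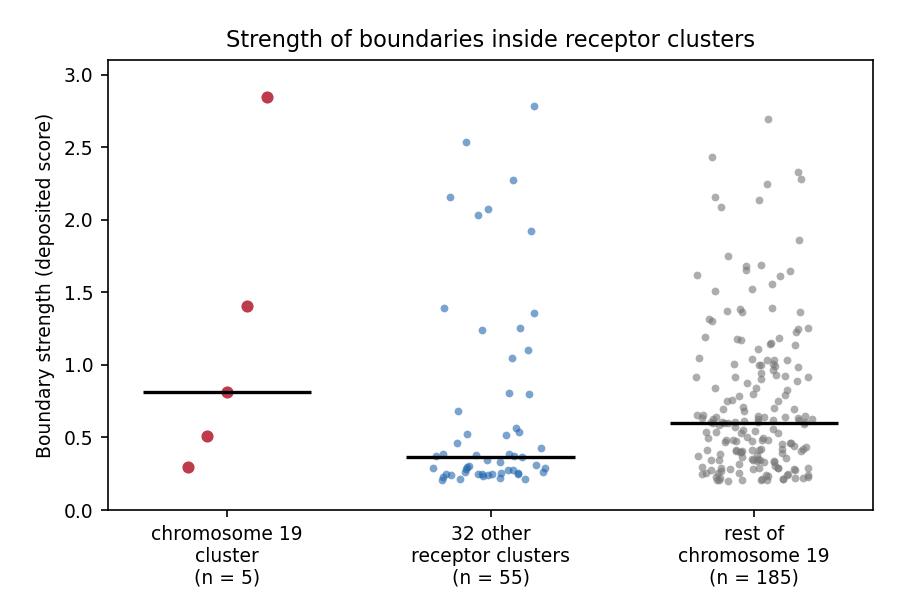
Deposited strength of each boundary (points) with the median of each set (line), for the chromosome 19 cluster, the other receptor clusters and the rest of chromosome 19. The 5 boundaries of the cluster run from 0.295 to 2.84, and its highest value lies above all points of the other sets.

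The density of boundaries in the cluster is only loosely known beside that of its chromosome, since it rests on 5 boundaries. All 5 lay at or left of the start of the 1105 kb interval. There were 2.39 per Mb in the cluster and 3.297 per Mb on the rest of chromosome 19, a ratio of 0.724 with an interval of 0.232 to 1.72. With strong boundaries alone the ratio was 1.01, and with the 1842 strongest it was 1.14. The median over the 33 clusters was 1.61 per Mb, and the cluster ranked 11 of 33.

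The starts of the receptor genes themselves mostly lay far from boundaries. A start was counted at a boundary where it fell inside the 5 kb interval of a boundary or up to 10 kb beyond either end. Of the 66 members 2 did, Olfr1423 and Olfr1441 (3.03%, interval 0.369 to 10.5), against 65 of 1069 receptor genes elsewhere (6.08%, interval 4.72 to 7.68) and 13% of all protein-coding genes. The next nearest start was that of Olfr1440 at 20.2 kb. The distance from a start to the nearest boundary midpoint had a median of 138 kb among the members, 114 kb among receptor genes elsewhere and 59.2 kb among other coding genes. The farthest member was Olfr1467, near the middle of the 1105 kb interval, at 529.7 kb. With the RefSeq gene start, a median of 2.92 kb from the one used, 1 of the 59 members that have one was at a boundary, Olfr1423. The members with no RefSeq start were left out of that count.

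From Patl1 to Gm5244, 13 other coding genes lie wholly inside the span, and they were at a boundary in 1 case, Patl1. The midpoint of a boundary lay inside 3 of them, Patl1, Gm4952 and Lpxn, and the same share over all coding genes was not computed. Their starts lay 0.101 to 93.95 kb from the nearest boundary midpoint, with a median of 36.4 kb.

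Places where a receptor gene stands next to another kind of coding gene had a boundary nearby in a larger share than places where receptor genes stand next to each other, and this was not tested. This comparison was chosen after the positions of the boundaries had been seen. The cluster and its ends had 8 such junctions, and 5 had a boundary midpoint within 25 kb of the gap (62.5%, interval 24.5 to 91.5). These were Olfr1420 and Patl1 (0.101 kb), Osbp and Olfr1423 (0.713 kb), Olfr1441 and Pfpl (16.1 kb), Gm5244 and Olfr1444 (14.9 kb), and Olfr1505 and Tle4, where 2 boundaries lay in a gap of 526 kb. Only in this last junction did a boundary midpoint lie in the gap itself. The boundary counted for Olfr1441 and Pfpl lay on the other side of Olfr1441, in the gap to Olfr1440, so it counts among receptor gaps too. That counted for Gm5244 and Olfr1444 lay beyond Gm5244, in Lpxn. The junctions of Stx3 with Olfr1417 (81.9 kb), Glyat with Olfr1442 (41.4 kb) and Olfr1443 with Keg1 (71.4 kb) had none. The pair Olfr1442 and Olfr1443 thus sat between other genes with no boundary within 25 kb on either side.

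Among the 62 gaps between neighbouring receptor genes of the cluster, 4 had a boundary within 25 kb (6.45%, interval 1.79 to 15.7). A boundary can count at more than 1 gap, as the one at the end of Olfr1423 did on both sides of that gene. Over all receptor genes of the genome the shares were 45.6% of 217 junctions and 12.5% of 1026 gaps between receptor genes, so the values in the cluster lie near this background. The median gap in the cluster was 13.1 kb at junctions and 14.3 kb between receptor genes. Among gaps of up to 50 kb alone, 4 of 7 junctions and 3 of 59 receptor gaps in the cluster had a boundary, against 39.1% and 12.6% elsewhere.

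**Figure D4:**
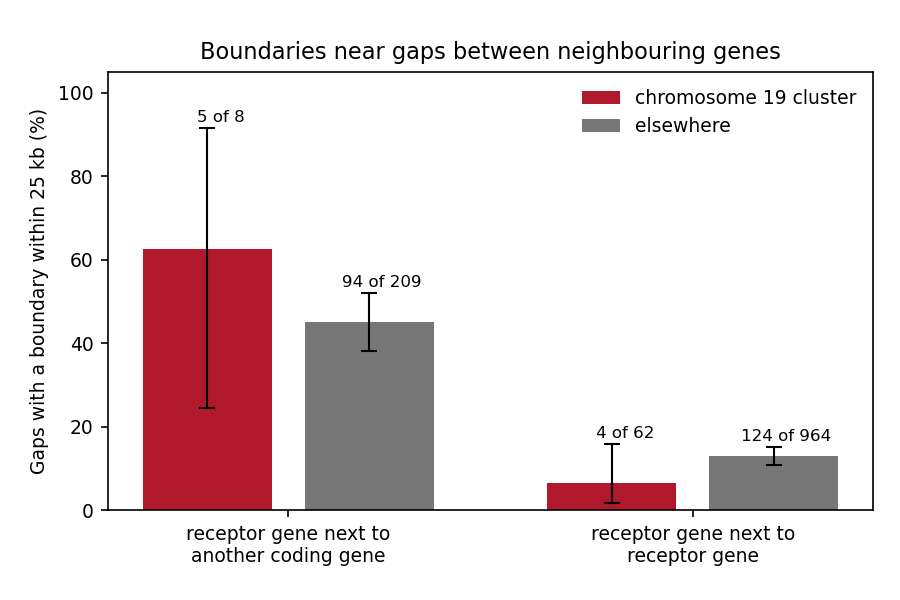
Share of gaps between neighbouring coding genes that have a boundary midpoint within 25 kb, in percent, for the chromosome 19 cluster (red) and for receptor genes elsewhere (grey). Bars start at 0 and error bars are exact binomial 95% intervals. Junctions with other genes reached 5 of 8 in the cluster and 94 of 209 elsewhere, and gaps between receptor genes 4 of 62 and 124 of 964.

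Pairs of members with the most similar coding sequences lay in the same interval. Coding sequences were 921 to 1077 bases long (median 942), and identity is given as identical bases over the shorter sequence in a global alignment. In all 67 pairs above 80% identity both genes lay in the same interval, and for 64 of 66 members the most similar other member was in the same interval. These counts take no account of the distance between the genes of a pair. Over all pairs, 1004 were within an interval and 1141 in different intervals. The closest pair was Olfr1555-ps1 and Olfr1432 (98.5%), followed by Olfr1502 and Olfr1505 (97.5%) and Olfr1417 and Olfr1418 (97.2%). The exceptions were Olfr1441, most like Olfr1438-ps1 across the 0.814 boundary (67.7%), and Olfr1496, whose best match reached 60.0% with Olfr1420. Olfr1441 is the only member in its interval, so its best match could only lie in another interval.

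Neighbouring members differed more across a boundary, but they were also farther apart there. The 4 neighbour pairs parted by at least 1 boundary were Olfr1420 and Olfr1423 (57.9% identical, starts 155 kb apart), Olfr1440 and Olfr1441 (65.2%, 30.2 kb), Olfr1441 and Olfr1442 (57.7%, 253 kb), and Olfr1443 and Olfr1444 (67.2%, 179 kb). Their median was 61.6%, against 76.0% for the 61 neighbour pairs within an interval (SD 11.99), whose starts were a median of 20.3 kb apart. All 4 lie within the range of the pairs within an interval, 56.3 to 97.2%. Distance and the presence of a boundary cannot be told apart with 4 pairs. Over all pairs of members with starts under 100 kb apart, the median was 65.2% across a boundary (3 pairs) and 69.6% within an interval (205 pairs), a difference of -4.45 points in place of -14.4. All 3 of these pairs hold Olfr1441 and span the boundary of strength 0.814, so they describe 1 gene at 1 boundary.

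Genes were joined into families through any pair at 70% identity or more, a limit chosen after the values were seen. The 66 genes formed 14 families, 3 of them single genes. Genes of 1 family can thus share less than the limit, as Olfr1451 and Olfr1471 did in the largest (65.6%). The largest had 31 members, from Olfr1442 to Olfr1489, in unbroken order over 961 kb. Of the 11 families with several members, 4 were in unbroken order and 7 were interleaved with genes of other families, such as Olfr1499, Olfr1502 and Olfr1505. The family of 31 was the only one of the 11 that crossed a boundary, since Olfr1442 and Olfr1443 lie left of the 1.404 boundary and the rest lie right of it. The most similar pair across any boundary was Olfr1443 and Olfr1447, at 76.7%. Olfr1417 to Olfr1420 made up 1 family and Olfr1423 to Olfr1428 another. Neighbouring genes belonged to different families in 21 cases. These were 3 of the 4 neighbour pairs parted by a boundary, which were also farther apart, and 18 of the 61 pairs within an interval. Families changed inside intervals too, as from Olfr1489 to Olfr1490 in the 1105 kb interval.

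**Figure D5:**
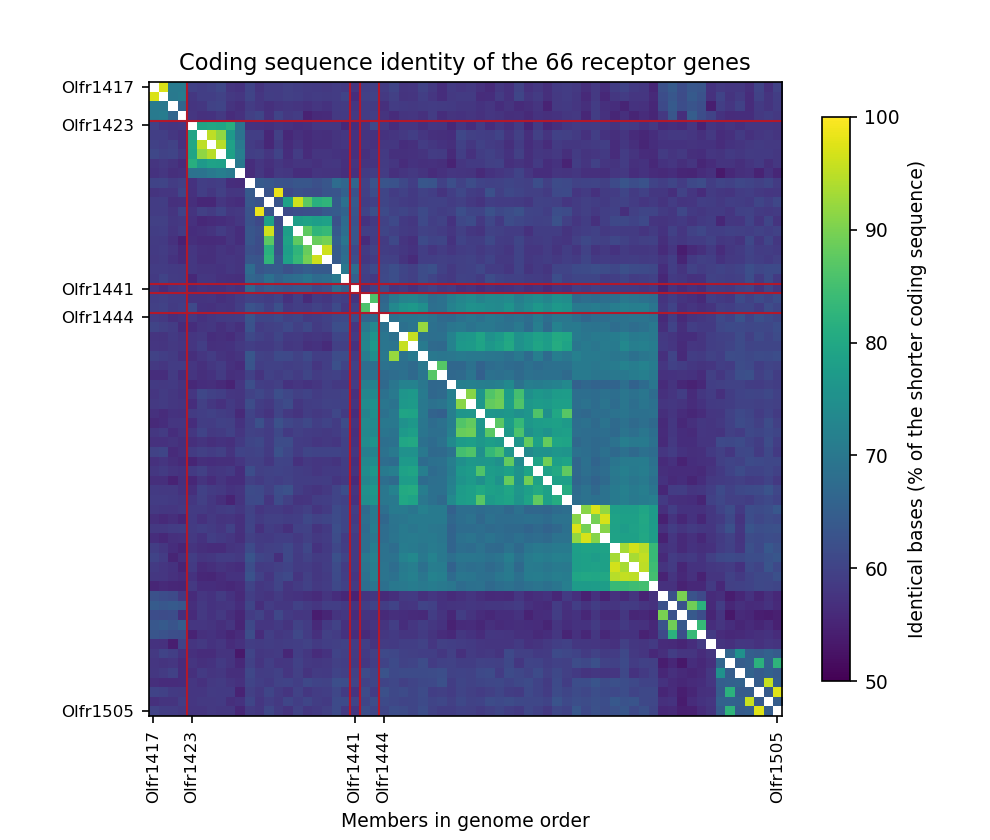
Identity of coding sequences between all pairs of the 66 members in genome order, in percent of the shorter sequence (colour, 50 to 100). Red lines mark boundaries between members. The bright blocks of close relatives lie along the diagonal between the lines, and the block that begins at Olfr1442 extends across the last line.

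Of the members 35 were on the forward and 31 on the reverse strand, and 42 of 65 neighbour pairs shared a strand (64.6%, interval 51.8 to 76.1). The share was 69.5% among 994 neighbour pairs of the other receptor clusters and 52.4% among 21735 neighbour pairs of all protein-coding genes, so the members lie near the other clusters. The 66 genes formed 24 runs of 1 strand. The longest run was 11 forward genes from Olfr1477 to Olfr1496 inside the 1105 kb interval. A run of 8 reverse genes began at Olfr1423, beside the 2.84 boundary, and ended at Olfr1555-ps1. A run of 6 forward genes from Olfr1440 to Olfr1445 crossed 3 boundaries, those with strengths of 0.814, 0.509 and 1.404.

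The clusters nearest in gene number were set beside it. On chromosome 10 the cluster from Olfr9 to Olfr827, with 60 genes in 1225 kb, held 4 boundaries, 1 of them strong, and on chromosome 17 that from Olfr90 to Olfr136, with 49 genes in 1253 kb, also held 4, 1 of them strong. Both are shorter than the chromosome 19 cluster, and their density was higher, at 3.27 and 3.19 boundaries per Mb against 2.39. The strongest boundary was 2.84 in the chromosome 19 cluster, 0.804 in that of chromosome 10 and 1.05 in that of chromosome 17. Other coding genes numbered 13, 1 and 3 in the same order of clusters, and the median over the 33 clusters was 2. The interval richest in receptor genes held 63.6% of the genes in the chromosome 19 cluster, 53.3% in that of chromosome 10 and 32.7% in that of chromosome 17. GC content was 39.2%, 37.9% and 38.7%, and repeats made up 44.1%, 48.8% and 46.4% of these clusters in that order.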

How the data were processed

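Per the labels, in situ Hi-C with DpnII was done on both replicates after fixation in 1% formaldehyde. The authors called boundaries on 1 contact matrix that merged the replicates, on GRCm38, per the series' design text, and deposited each with a strength, a score of unstated scale. Which aligner, boundary caller, window and filters they used is not given in the sources. Other kinds of file were not used here, and no value of a single replicate could be had.

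Boundaries were joined to GENCODE M21 genes and the GRCm38.p6 sequence of RefSeq, which is of another strain than the mice, with Python 3.11.15, pandas 2.3.3 and Biopython 1.88. A gene start was the outer end of its model. CTCF matches were to a 12-base consensus on either strand. A protein table was not used here, so the planned protein identity was computed on coding sequences, aligned with match 1, mismatch -1, gap opening -4 and extension -0.5. Assignment of genes to intervals and windows was tested on simulated data. Named genes were the ends of each interval, genes at or next to boundaries, other coding genes of the span, and further genes chosen after their values were seen. Members, lists and comparisons were chosen with earlier results of these data known.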

Additional observations from a re-analysis of the deposited data

How the results depend on the processing

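Of 45 alternatives to 11 results, 29 stayed within the set limits, which were 1.5 times for a count and its interval or SD for other values, and 16 did not. Some of the 29 had little or no room to move. Receptor pseudogenes left the span unchanged, and no boundaries of the cluster lay under 100 kb apart to be merged. The limits were also wide, so that a density ratio of 1.14 and an identity difference of -4.45 points counted as within them. With the 1842 strongest boundaries alone the span held 2, no edge had a boundary within 50 kb (0), 1 member start was at a boundary, and the median interval of members was 3155 kb. The density ratio to the rest of the chromosome was 0.724, against 1.01 with strong boundaries and 1.14 with the 1842 strongest, so its direction depends on the boundaries taken. Within 100 kb both edges (2) had a boundary. Member starts at a boundary numbered 0 with the boundary interval alone, 6 with 25 kb added, 4 with receptor pseudogenes counted and 1 with the RefSeq gene start, over 59 members. CTCF matches lay in 0 windows with the interval alone and in 3 with 25 kb added. With each interval counted once the median length was 220 kb, since 42 members share 1 interval. Counting genes of any biotype gave 38 other genes in place of 13. Junctions near a boundary numbered 3 within 10 kb, and receptor gaps 2 within 10 kb and 9 within 50 kb. These distances, the RefSeq start, the gene names ending in -ps1 or starting with Gm, and the placing of genes by their start were chosen after seeing the data. The identity difference was -14.4 points, and -4.45 over all pairs under 100 kb apart, with 3 pairs across a boundary, all of them with Olfr1441. The causes were not tested beyond what each alternative changes by construction. No paired analysis was possible because both replicates belong to 1 group and were combined before boundaries were called, so no replicate could be left out either. The depth of the map is unknown, so what it limits cannot be stated.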

Other observations

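Right of the cluster the next interval, between the boundaries with strengths of 0.918 and 0.346, was 435 kb long and held 0 coding genes, 1 CTCF motif match and 37.0% repeats. The next coding gene start was that of Tle4, a gene of a transcriptional corepressor, 661 kb from the boundary beside Olfr1505. At the left end of the cluster the interval that holds Olfr1417 to Olfr1420 had 42.4% GC and 28.8% repeats, near the medians over all intervals of 42.6% and 30.5%. As a whole this interval, which also holds Gif, Mrpl16 and Stx3, differed in composition from the 1105 kb interval (37.9% GC, 51.2% repeats). The composition around the 4 receptor genes alone was not measured.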
